A study of Mus musculus with 2 samples.

Results

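The genes described are 10 genes that encode proteins of neutrophil granules, out of 53801 genes counted in each of 2 RNA-seq libraries of sorted brain microglia. The set holds 4 primary granule genes (Mpo, Elane, Prtn3 and Ctsg), 4 secondary granule genes (Ltf, Camp, Ngp and Lcn2) and 2 tertiary granule genes (Mmp8 and Mmp9). These members were chosen on the ratio of the libraries by granule class, with values of these same libraries known, so every level and ratio of theirs is a description and none was tested. Both libraries belong to one group of Cx3cr1(CreER/wt) mice on a C57BL/6 background, labelled as males of 8 to 10 weeks and each from a single brain. The mice carry a tamoxifen-inducible Cre in one allele of Cx3cr1, a gene that monocytes and macrophages transcribe as well as microglia, and had received tamoxifen at 75 mg/kg/day for 4 days, beginning 14 days before surgery. Sham surgery was followed 3 days later by sorting of CD11c-Ly6G-CD11b+CD45low cells from the left hemisphere. The titles name sham surgery while the treatment label reads none, and the study's methods give an older age range and both sexes. Libraries of mice with stroke were not analysed here, so the comparison is between 2 mice of one group, called replicate 1 and replicate 2.

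Neutrophils carry their antimicrobial proteins in granules that are filled in sequence while the cell matures in the bone marrow. Genes of primary (azurophil) granules are transcribed first, at the promyelocyte stage, those of secondary (specific) granules follow in myelocytes and metamyelocytes, and those of tertiary (gelatinase) granules come later still. Because transcription of most granule genes falls as the cell leaves the marrow, a circulating neutrophil holds much granule protein and little of its earliest granule mRNA. Resting microglia are not known as a main source of most of these transcripts, and the Ly6G- gate is meant to leave neutrophils out.

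Replicate 1 held 23381026 counts on genes and replicate 2 held 41142609. Levels are counts per 1000000 counts on genes (CPM). The limit behind a gene with no count, set at 3 counts, was 0.128 CPM in replicate 1 and 0.0729 CPM in replicate 2. Intervals on ratios and shares are 95% intervals that cover counting error only, since amplified reads are not independent molecules, and they say nothing of the spread between mice. Microglia markers were abundant in both libraries, with 9 of 9 markers detected and 3.63% and 4.13% of all counts. Single markers went both ways, with ratios of replicate 2 over replicate 1 from 0.434 for Sall1 to 1.75 for Gpr34. Replicate 2 nevertheless stood apart in neutrophil RNA. The 9 mature neutrophil markers summed to 3482 CPM in replicate 1 and 29409 CPM in replicate 2. Their ratios of replicate 2 over replicate 1 had a median of 4.23 and were lowest for Csf3r, at 0.683. Ly6g, which encodes the Ly6G antigen of the gate, had the highest ratio of the 9, with 15.4 CPM in replicate 1 and 211 CPM in replicate 2. In bulk samples such as these, more cells of a type and more RNA per cell cannot be told apart.

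All 10 granule genes were detected in both libraries, and all 10 were higher in replicate 2. Together they held 43111 counts in replicate 1 and 1385999 in replicate 2, which is 0.184% and 3.37% of the counts, a ratio of 18.3 (18.1 to 18.4). Every mean over the libraries is therefore set by replicate 2. Leaving it out takes the summed level of the secondary genes from 16216 to 1592 CPM, that of the tertiary genes from 1411 to 206 CPM and that of the primary genes from 138 to 45.8 CPM. Of the 14673 genes that averaged 10 counts or more, called tested genes from here on, 9.51% were over 2-fold higher in replicate 2 and 25.7% over 2-fold lower, and 1.50% were over 8-fold higher. Scaling moved this split, from 1395 higher and 3767 lower with CPM to 1783 and 3015 with TMM library sizes and to 1942 and 2825 with DESeq2 size factors. Of the granule genes, 10 of 10 were over 2-fold and 7 of 10 over 8-fold higher, counts that the choice of members had already used. The median ratio was 11.7 for the granule genes and 0.864 for all 14673 genes. The 10 genes passed the filter on low counts with at least 23 counts in either library.

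**Figure D1:**
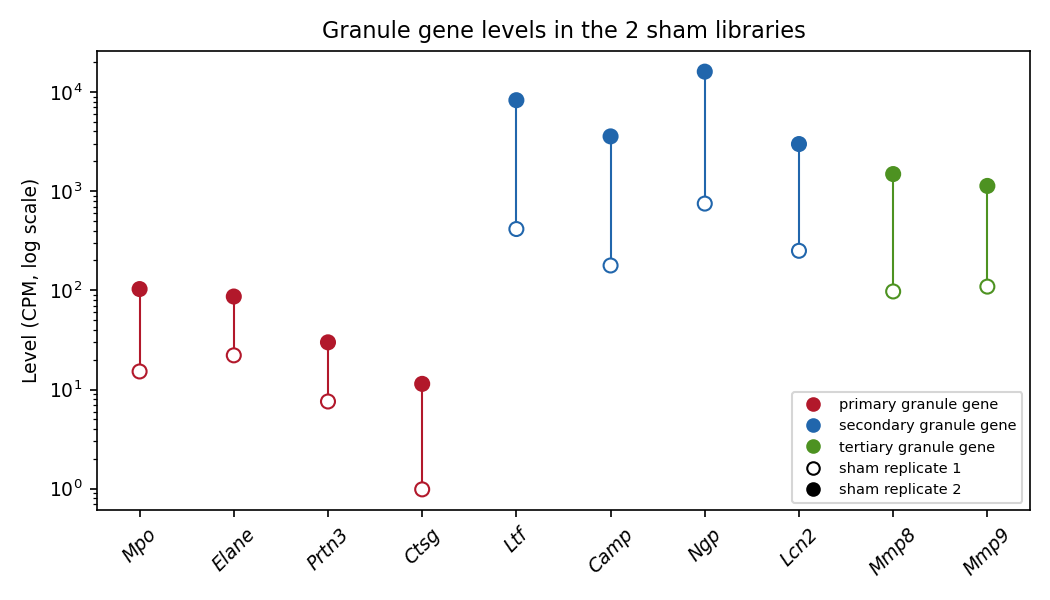
Level of each granule gene in CPM on a log scale, with an open point for sham replicate 1 and a filled point for sham replicate 2, colored by granule class. Every filled point lies above its open point, from Ctsg at 0.984 and 11.4 CPM to Ngp at 749 and 16031 CPM.

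**Figure D2:**
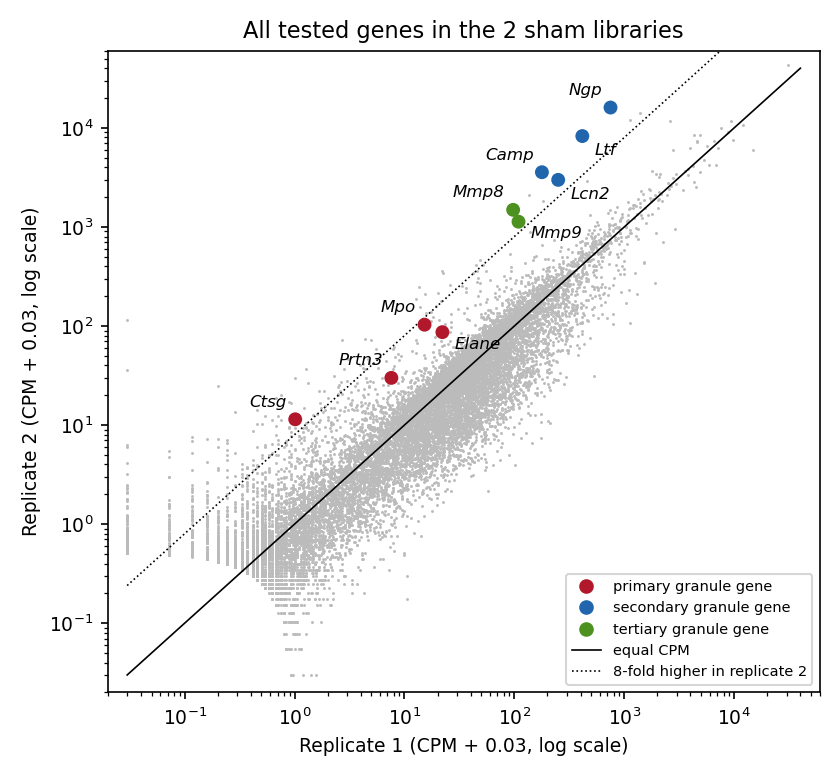
CPM of the 14673 tested genes in replicate 1 (horizontal) and replicate 2 (vertical), both on log scales with 0.03 added, the 10 granule genes colored by class. The solid line marks equal CPM and the dotted line an 8-fold higher level in replicate 2; Mpo, Elane and Prtn3 lie between the lines, and the other 7 granule genes lie above the dotted one.

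The difference between the libraries was graded by granule class. Summed over its genes, the primary class was 5.03-fold higher in replicate 2 (4.72 to 5.37), the tertiary class 12.7-fold (12.3 to 13.1) and the secondary class 19.4-fold (19.2 to 19.6). On the log2 scale these ratios were 2.33, 3.66 and 4.28. Dividing each gene by the length of its longest transcript before summing gave 4.56, 13 and 19.5. The order was secondary above tertiary and tertiary above primary. Of the 7 alternatives read, those that only change library size shift all classes alike, so they could not change it. It also held without the most abundant gene of each class, with the median of the members, and with GC content and length adjusted. That adjustment brought secondary and tertiary closer, to log2 ratios of 4.09 and 3.88. Single genes overlapped between the classes. Primary genes ranged from 3.92-fold to 11.5-fold, tertiary genes from 10.4-fold to 15.3-fold and secondary genes from 11.9-fold to 21.4-fold, so Ctsg of the primary class was above Mmp9 of the tertiary class and close to Lcn2 of the secondary class. With GC content and length adjusted, Mmp9 (log2 ratio 4.09) was above Ngp (4.04) and Lcn2 (3.32). Mmp8 (3.60) was above Lcn2 alone, and Ltf (4.45) and Camp (4.19) stayed above both tertiary genes.

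**Figure D3:**
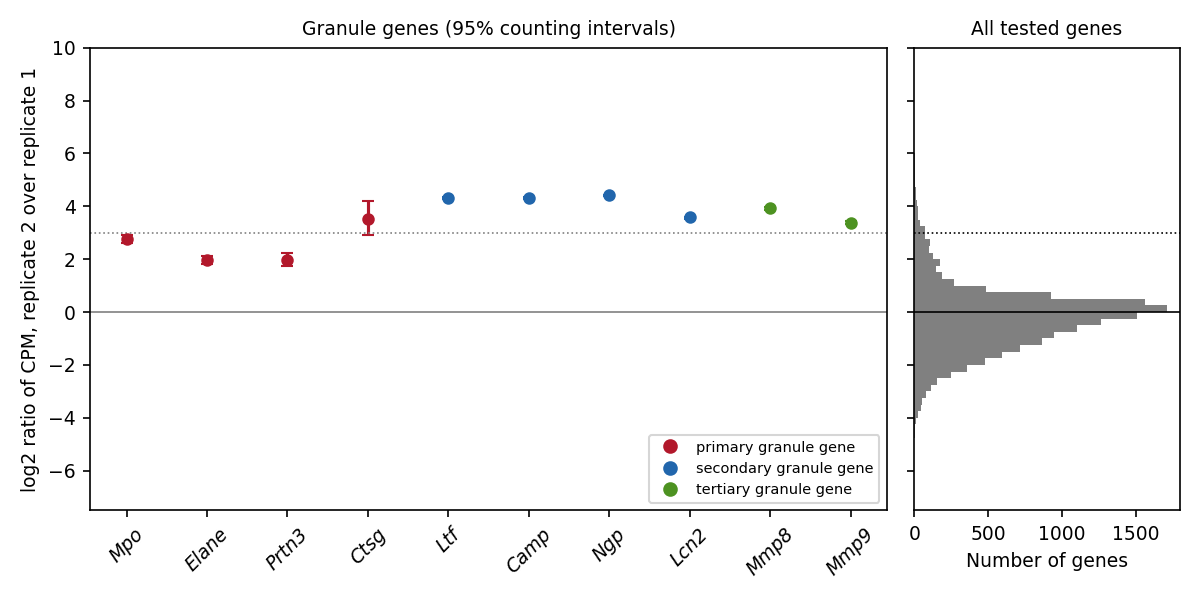
Left, the log2 ratio of CPM in replicate 2 over replicate 1 for each granule gene with its 95% counting interval, and right, the number of tested genes at each log2 ratio. The solid line marks no difference and the dotted line 8-fold; the granule genes lie from 1.97 to 4.42, against a median of -0.21 for all tested genes.

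A share within one library does not depend on how the libraries are scaled. The class shares use the same counts as the class ratios above, so they restate that grading and are not a second result. Primary genes took 2.49% of the counts of the 10 genes in replicate 1 (Wilson interval 2.34 to 2.64) and 0.685% in replicate 2 (0.671 to 0.699). Tertiary genes took 11.2% (10.9 to 11.5) and 7.77% (7.72 to 7.81). Secondary genes took the rest, 86.3% (86.0 to 86.6) in replicate 1 and 91.5% (91.5 to 91.6) in replicate 2. Expressed as a quotient, there were 34.7 secondary counts for each primary count in replicate 1 and 134 in replicate 2, a 3.85-fold difference (3.61 to 4.10, Wald interval on the log scale). The quotient of tertiary to primary counts was 4.50 and 11.3, a 2.52-fold difference (2.35 to 2.70), and that of secondary to tertiary counts 7.71 and 11.8, a 1.53-fold difference (1.48 to 1.58). The library with the smaller share of granule counts thus had relatively more of the primary class among them.

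**Figure D4:**
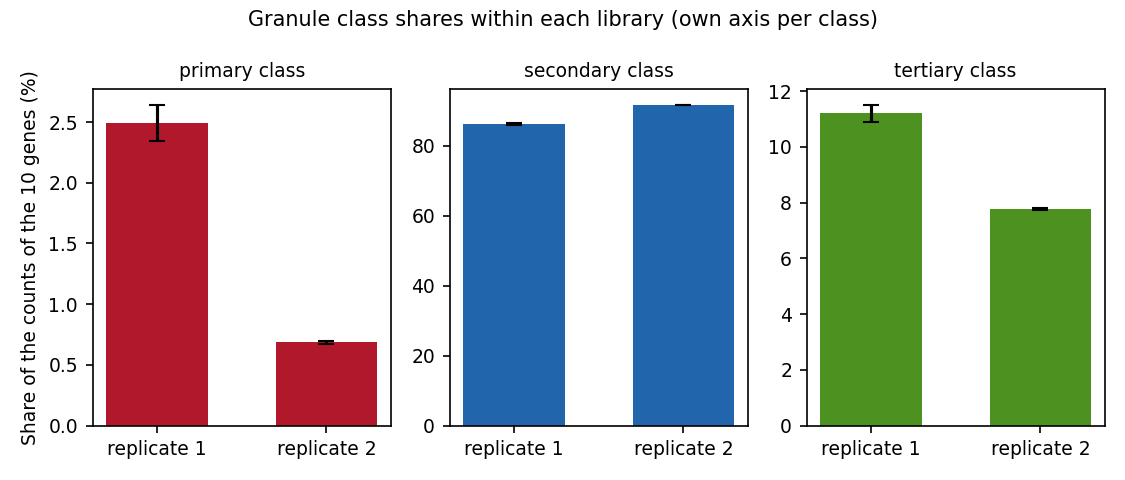
Percent of the counts of the 10 granule genes that fell in each class, one bar per sham library with its 95% Wilson interval, each panel with its own axis from 0. The primary share was 2.49% in replicate 1 and 0.685% in replicate 2, the tertiary share 11.2% and 7.77%, and the secondary share 86.3% and 91.5%.

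The primary class holds myeloperoxidase and 3 serine proteases. Mpo (chromosome 11 of GRCm38, 87793581 to 87804413, plus strand) encodes myeloperoxidase, which makes hypochlorous acid from hydrogen peroxide. It had 355 counts (15.2 CPM) in replicate 1 and 4234 counts (103 CPM) in replicate 2, a ratio of 6.78 (6.08 to 7.57). Elane (chromosome 10, 79886247 to 79888215, plus strand) encodes neutrophil elastase, which cleaves elastin and bacterial outer membrane proteins. It had 517 counts (22.1 CPM) and 3562 counts (86.6 CPM), a ratio of 3.92 (3.57 to 4.30), the smallest of the 10. Prtn3 (chromosome 10, 79874476 to 79883174, plus strand) encodes proteinase 3, an autoantigen of human vasculitis, and had 177 counts (7.57 CPM) and 1232 counts (29.9 CPM), a ratio of 3.96 (3.38 to 4.66). Elane and Prtn3 differed from each other by less than counting error in their ratios. There were 2.92 Elane counts for each Prtn3 count in replicate 1 and 2.89 in replicate 2, a quotient of 0.990 (0.825 to 1.19). Ctsg (chromosome 14, 56099881 to 56102574, minus strand) encodes cathepsin G, a chymotrypsin-like protease. It was the lowest of the 10 genes, with 23 counts (0.984 CPM) and 467 counts (11.4 CPM), and its ratio of 11.5 had the widest interval (7.60 to 18.4). The ratios of Mmp9, Mmp8 and Lcn2 fall inside this interval, so at this depth Ctsg could not be told from them.

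Within the primary class the genes were not shifted by one common factor. Elane took 48.2% of the primary counts in replicate 1 (45.2 to 51.2) and 37.5% in replicate 2 (36.5 to 38.5), whereas Mpo took 33.1% (30.4 to 36.0) and 44.6% (43.6 to 45.6). Mpo per Elane was accordingly 1.73-fold higher in replicate 2 (1.50 to 2.00), and Ctsg per Elane 2.95-fold higher (1.92 to 4.52). The start of the counted span of Prtn3 overlaps that of Plppr3 on the opposite strand, which had 45 and 50 counts. Mpo overlaps an antisense gene with no counts in either library. Whether the counting used strand is not stated, so reads in the shared bases cannot be assigned.

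The bases before the RefSeq starts of Elane and of Prtn3 are shown because these neighbouring genes kept their proportion to each other. Their windows are chr10:79886062-79886246 and chr10:79879417-79879613 of GRCm38.p6, plus strand. They were taken upstream of the RefSeq starts, 79886312 and 79879667, and cut to the nearest run of bases with no annotated exon. The RefSeq start of Prtn3 lies inside the span given above for Prtn3, so its window is not upstream of that span. Capitals mark the letters GAGGAA, a core sequence bound by the myeloid factor PU.1, which was found once in each window.
Elane: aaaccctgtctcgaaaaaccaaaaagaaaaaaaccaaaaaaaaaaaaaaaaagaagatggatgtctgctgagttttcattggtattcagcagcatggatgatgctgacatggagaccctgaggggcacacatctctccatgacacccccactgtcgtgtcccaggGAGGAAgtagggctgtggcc
Prtn3: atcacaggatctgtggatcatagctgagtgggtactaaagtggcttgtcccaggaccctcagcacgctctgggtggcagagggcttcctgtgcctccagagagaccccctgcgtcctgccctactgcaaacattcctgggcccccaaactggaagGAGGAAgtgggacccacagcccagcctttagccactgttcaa

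The secondary class held the most abundant granule transcripts. Ngp (chromosome 9, 110419747 to 110423012, plus strand) encodes neutrophilic granule protein, a relative of the cathelicidins, and had 17506 counts (749 CPM) in replicate 1 and 659548 counts (16031 CPM) in replicate 2, a ratio of 21.4 (21.1 to 21.7). By count it was rank 149 of all genes in replicate 1 and rank 2 in replicate 2. Camp (chromosome 9, 109847379 to 109849617, minus strand) encodes the cathelicidin antimicrobial peptide and had 4164 counts (178 CPM) and 146668 counts (3565 CPM), a log2 ratio of 4.32 and an interval on the ratio of 19.4 to 20.6. Ltf (chromosome 9, 111019271 to 111042767, plus strand) encodes lactoferrin, which binds iron and so withholds it from bacteria. It had 9692 counts (415 CPM) and 339832 counts (8259.9 CPM), a ratio of 19.9 (19.5 to 20.3). These 3 genes had nearly the same ratio. Camp per Ngp was 0.238 in replicate 1 and 0.222 in replicate 2, and Ltf per Ngp was 0.554 and 0.515. Both quotients were slightly lower in replicate 2, at 0.935-fold (0.903 to 0.967) and 0.931-fold (0.908 to 0.954). With GC content and length adjusted, the log2 ratios were 4.45 for Ltf, 4.19 for Camp and 4.04 for Ngp, so their order changed.

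Lcn2 did not share the ratio of the other secondary genes. Lcn2 (chromosome 2, 32384633 to 32388252, minus strand) encodes lipocalin 2, which captures bacterial siderophores and which activated glia and other cells can also make. It had 5853 counts (250.3 CPM) and 122819 counts (2985 CPM), a ratio of 11.9 (11.6 to 12.2). It took 15.7% of the secondary counts in replicate 1 and 9.68% in replicate 2, and Lcn2 per Ngp was 0.557-fold in replicate 2 (0.540 to 0.574).

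Sequences before the starts of Ltf and Ngp are shown because these genes had the highest secondary counts and nearly the same ratio. They are chr9:111019042-111019270 and chr9:110419558-110419746 of GRCm38.p6, plus strand, cut in the same way. Capitals mark GAGGAA read on the other strand as TTCCTC, which is in Ltf alone, and the pattern TTNNGNAA on either strand, which is one written form of the sites of C/EBP factors. The Camp window, not shown, held neither pattern, although the ratio of Camp was nearly the same. That of Lcn2, whose ratio was lower, held both.
Ltf: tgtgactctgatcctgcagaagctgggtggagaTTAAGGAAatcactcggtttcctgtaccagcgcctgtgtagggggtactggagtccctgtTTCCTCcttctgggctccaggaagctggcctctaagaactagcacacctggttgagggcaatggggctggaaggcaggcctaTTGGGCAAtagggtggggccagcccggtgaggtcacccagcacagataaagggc
Ngp: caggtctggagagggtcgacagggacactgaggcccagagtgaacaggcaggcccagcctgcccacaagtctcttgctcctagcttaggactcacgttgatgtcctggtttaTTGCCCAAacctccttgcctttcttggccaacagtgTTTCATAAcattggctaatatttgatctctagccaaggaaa

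The tertiary class holds 2 matrix metalloproteinases. Mmp8 (chromosome 9, 7558456 to 7568485, plus strand) encodes neutrophil collagenase and had 2277 counts (97.4 CPM) in replicate 1 and 61171 counts (1487 CPM) in replicate 2, a ratio of 15.3 (14.6 to 15.9). Mmp9 (chromosome 2, 164940780 to 164955850, plus strand) encodes gelatinase B, which cleaves type IV collagen of basement membranes and has been widely studied at the blood-brain barrier. It had 2547 counts (109 CPM) and 46466 counts (1129 CPM), a ratio of 10.4 (9.96 to 10.8). Mmp9 had the larger count in replicate 1 and Mmp8 in replicate 2, and Mmp8 per Mmp9 was 1.47-fold higher in replicate 2 (1.39 to 1.56). The order of their ratios did not hold when each log2 ratio was set against genes of like GC content and length. Mmp8 then moved from 3.93 to 3.60 and Mmp9 from 3.37 to 4.09.

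Bases before the RefSeq start of Mmp8 are shown as the one tertiary window read, chr9:7558179-7558428 of GRCm38.p6, plus strand, with the same capitals.
Mmp8: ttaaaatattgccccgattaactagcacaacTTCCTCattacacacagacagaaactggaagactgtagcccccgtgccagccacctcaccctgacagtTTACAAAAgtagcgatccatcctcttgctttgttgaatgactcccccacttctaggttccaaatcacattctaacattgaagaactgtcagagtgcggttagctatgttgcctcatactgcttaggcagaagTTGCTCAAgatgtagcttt

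RefSeq promoters were matched for 9 of the 10 genes, 1 window each, and the 250 bases before the start were searched on both strands for 4 short patterns chosen after the values were known. The search took in bases of annotated exons, and the whole Lcn2 window lies inside the counted span of Lcn2. The runs with no annotated exon were 47 bases for Mpo, 89 for Camp and 53 for Lcn2, too short to be shown. GAGGAA was present in 7 of 9 windows, against 23.3% of all 32851 windows. TTNNGNAA was present in 4 of 9, against 36.8% of all. That is close to the share of all windows. By class, its matches were in 0 of 4 primary windows, in 3 of 4 secondary windows (Ltf, Ngp and Lcn2) and in the Mmp8 window. Those of GAGGAA were in 4 of 4 primary windows, in 2 of 4 secondary windows and in the Mmp8 window. With so few windows, a difference by class was not tested. AACGG, a core of MYB sites, was found in 2 of 9 windows, those of Elane and Prtn3, against 14.5% of all. These AACGG matches, and the Ngp match of TTNNGNAA nearest its start, reach into bases cut from the sequences shown. TGTGGT, a core of RUNX sites, was found in 1 of 9, that of Ctsg, against 14% of all. No matches of different patterns overlapped in these windows. Such matches describe letters and are not binding sites.

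Compared per kilobase of the longest transcript, the order of the levels was nearly the same in both libraries. In replicate 1 it ran from Ngp (613 CPM per kilobase) through Camp (235), Lcn2 (182), Ltf (151), Mmp8 (40.2), Mmp9 (34.3), Elane (22.5), Prtn3 (7.39) and Mpo (5.52) to Ctsg (0.982). Replicate 2 ran from Ngp (13118 CPM per kilobase) through Camp (4703), Ltf (3011), Lcn2 (2173), Mmp8 (613), Mmp9 (356), Elane (88.0), Mpo (37.4) and Prtn3 (29.2) to Ctsg (11.3). The neighbours that changed places were Lcn2 with Ltf and Prtn3 with Mpo. The SD over the libraries holds the shift that the granule genes shared, so it does not measure this order within a library. The SD of a gene was close to or above its mean, for example 8389.8 ± 10806 CPM for Ngp, 792 ± 982 CPM for Mmp8 and 54.3 ± 45.6 CPM for Elane (SD, n = 2).

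Neighbouring genes were read around 5 of the members, in 2 regions. Camp, Ngp and Ltf lie on chromosome 9 within 1195389 bases. In that stretch and 100 kb on either side, 0 of 23 other tested genes were over 2-fold higher in replicate 2 and 11 were over 2-fold lower, with a median ratio of 0.527, where 9.51% of all tested genes were higher and 25.7% lower by that fold. Ccdc12 had the highest ratio of the 23, at 1.52. Elane begins 3072 bases after the end of Prtn3. Around this pair, 2 of 11 other tested genes were over 2-fold higher, namely Prss57, a serine protease gene of the same granules (4.48-fold), and R3hdm4 (2.18-fold). Another 2 of the 11 were over 2-fold lower, and the median ratio was 0.631.

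Other genes of granules and vesicles were read from lists that were likewise chosen with earlier results known. Of 22 such genes, 20 passed the filter and 14 of these were over 2-fold higher in replicate 2, beside the 9.51% of all tested genes. None of the 20 was over 2-fold lower, and their median ratio was 4.48. In the list of other primary granule genes, 2 of 6 tested genes were over 2-fold higher. These were Prss57, with 32 and 252 counts and a ratio of 4.48 (3.09 to 6.68), and Lyz2, which encodes lysozyme in macrophages as well as neutrophils, with 2608 and 11689 CPM. Ctsc, whose product activates the granule serine proteases, had 1653 and 1323 CPM, and Gusb, which encodes a lysosomal hydrolase of many cells, had the lowest ratio of the list at 0.778. Bpi had 0 counts in both libraries. In the list of other secondary granule genes, 6 of 7 were over 2-fold and 4 over 8-fold higher. They were led by Olfm4, an olfactomedin of a subset of neutrophils, with 4.96 and 71.6 CPM, a ratio of 14.4. Cd177, a surface protein stored in specific granules, followed with 102 and 1208 CPM. Cyba, a subunit of the NADPH oxidase that microglia also make, was the exception at 1.30. The list of other tertiary granule genes had 3 of 4 over 2-fold higher, with ratios up to 6.39 for Fcnb (ficolin B), while Slc11a1, a metal transporter of phagocytes, had 0.944. In the secretory vesicle list, 3 of 3 tested genes were over 2-fold higher, including the formyl peptide receptor genes Fpr1 (8.22) and Fpr2 (10.4), and Alpl had 3 and 39 counts.

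**Figure D5:**
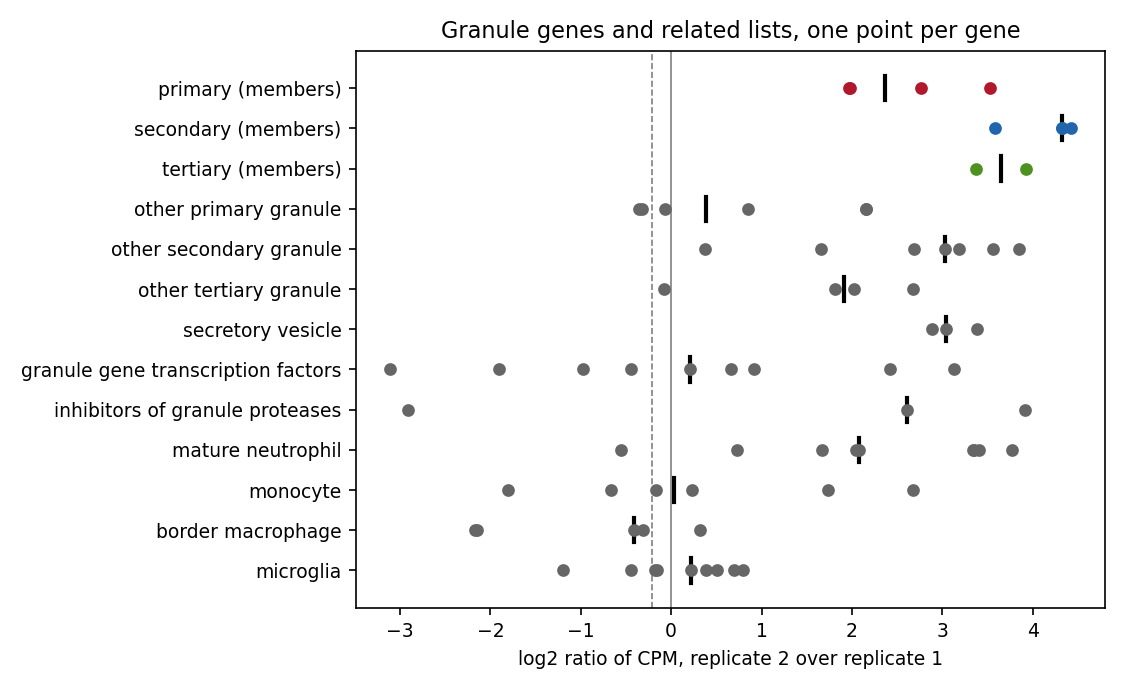
The log2 ratio of CPM, replicate 2 over replicate 1, with 1 point per tested gene and a black bar at the median of each list. The solid line marks 0 and the dashed line the median of all tested genes, -0.21; the lists of the 3 granule classes have medians of 2.37, 4.32 and 3.65, and that of microglia markers 0.22.

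Transcription factors that act on granule genes were read from a list of 9. In replicate 2, 2 of 9 were over 2-fold higher and 2 of 9 over 2-fold lower, beside 9.51% and 25.7% of all tested genes, and their median ratio was 1.15. Myb, needed early in the lineage, had 10 and 154 counts, a ratio of 8.75 (4.63 to 18.6). Cebpe, the factor required for secondary granule genes, had 67 counts (2.87 CPM) and 629 counts (15.3 CPM), a ratio of 5.34 (4.14 to 6.97). Cebpa, which acts at the start of the granulocyte lineage and is also made by microglia, went the other way, with 67.4 and 7.80 CPM, and Cebpb had 7.66 and 2.04 CPM. Spi1, which encodes PU.1 and is shared with microglia, was nearly level at 699.7 and 807 CPM. Gfi1 had 9 and 25 counts, and its interval (0.713 to 3.84) includes no difference.

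Inhibitors of the granule proteases were mixed as well. Serpinb1a, which encodes an inhibitor of elastase, proteinase 3 and cathepsin G, had 22.5 and 339 CPM, a ratio of 15.1 (13.8 to 16.5). Slpi, which encodes secretory leukocyte protease inhibitor, had 45.3 and 277 CPM. Timp2, an inhibitor of metalloproteinases that microglia make, had 782 and 104 CPM, a ratio of 0.133 (0.128 to 0.137). Timp1 had 2 and 14 counts and did not pass the filter.

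Markers of mature neutrophils moved with the granule genes. The sum of the 9 markers was 3482 CPM in replicate 1 and 29409 CPM in replicate 2, and none was at 0. Of the 9, 7 were over 2-fold and 4 over 8-fold higher, beside 9.51% and 1.50% of all tested genes. Their median ratio was 4.23, against 11.7 for the granule genes. S100a8, a calcium-binding protein gene that neutrophils transcribe heavily, had 1396 and 14266 CPM, whereas Csf3r, the receptor gene for granulocyte colony-stimulating factor, had 517 and 354 CPM. Set against Ly6g within each library, primary counts were 2.98 and 1.10 per Ly6g count, tertiary counts 13.4 and 12.4, and secondary counts 103 and 146. The proportion of tertiary counts to Ly6g differed by less than counting error (0.927-fold, 0.831 to 1.03), but that to S100a8 did not. Per S100a8 count, tertiary counts were 0.148 and 0.183, a 1.24-fold difference (1.20 to 1.28), secondary counts 1.14 and 2.16, and primary counts 0.0328 and 0.0162.

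Markers of dividing cells also moved with the granule genes. Their sum was 19.2 CPM in replicate 1 and 95.6 CPM in replicate 2, and 5 of 5 were over 2-fold higher, beside 9.51% of all tested genes, with Mki67 at 2.44 and Ccnb2 at 10.2. The basophil and mast cell markers summed to 2 counts in replicate 1, with Prss34, Mcpt8 and Fcer1a at 0, and to 6782 counts in replicate 2. Monocyte markers summed to 901 and 3402 CPM, and 2 of 6 were over 2-fold higher, Chil3 (6.38) and Ly6c2 (3.34), while F13a1 had 0.287. Border macrophage markers summed to 417 and 216 CPM, with 0 of 5 over 2-fold higher. The part of any of these cells in the granule gene values was not tested.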

How the data were processed

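RNA-seq was analysed from 2 sham microglia libraries, mapped to their group from the sample titles. Per the paper's methods and the submitters' processing notes, the authors used HISAT2 for alignment to GRCm38 and HTSeq for counting by Ensembl gene. The deposited tables hold whole-number counts, not normalized; tool versions, annotation release and strand setting are not given in the sources used here. Symbols came from GENCODE M21, which uses GRCm38, for 53620 of 53801 identifiers; Chi3l1 was matched as Chil1 through RefSeq synonyms. Deposited gene starts count from 0 and are given from 1.

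Counts were scaled to 1000000 counts on genes (CPM). Ratios are replicate 2 over replicate 1 with exact conditional binomial (Clopper-Pearson) intervals, counts under 3 being set to 3 for all-gene summaries. Genes averaging 10 counts or more (tested genes) were counted past 2-fold and 8-fold; with 1 group no p-value was computed. Members and lists were chosen with earlier results of these data known. Named genes were the members, list genes at the ends of their list or tied to the members by role, and the 5 genes with the closest ratio. Ratios, scaling and GC adjustment were checked on simulated counts. Alternatives were edgeR 4.0.16 TMM and DESeq2 1.42.0 size factors, totals without mitochondrially encoded or neutrophil genes, other filters, other class summaries, GC and length adjustment in 10 bins each, and leaving out each library. Software was Python 3.11.15 with pandas 2.3.3, scipy 1.17.1, matplotlib 3.10.9 and numpy 2.4.6, and R 4.3.3.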

Additional observations from a re-analysis of the deposited data

How the results depend on the processing

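No paired analysis was possible because both libraries belong to 1 group. For the log2 ratios of the primary, secondary and tertiary classes, 2.33, 4.28 and 3.66, the alternatives that moved them past counting error were TMM (2.55, 4.49 and 3.88), DESeq2 size factors (2.61, 4.55 and 3.94), totals without granule, vesicle and mature neutrophil genes (2.44, 4.38 and 3.77), leaving out the most abundant gene of the class (2.06, 4.13 and 3.37) and GC and length adjustment (2.43, 4.09 and 3.88). The median of the members moved the secondary class to 4.32. None reversed a ratio. TMM moved the median log2 ratio of all tested genes from -0.21 to 0.01 and DESeq2 size factors moved it to 0.06, so the 2 scalings raise every ratio alike by construction. Without Ngp, the mean share of secondary genes was 80.4% in place of 88.9%, and that of tertiary genes 16.8% in place of 9.48%. Leaving out either library gave levels of 45.8 to 231, 1592 to 30841 and 206 to 2616 CPM for the primary, secondary and tertiary classes, which with n = 2 lie within 1 SD by construction. Genes over 2-fold higher numbered 1395, but 563 with a mean of at least 100 counts and 772 with at least 10 counts in each library. Genes over 8-fold higher numbered 220, but 109 and 92. Fewer genes were tested under these filters. The 563 and 109 of 10313 genes were also smaller shares than the 9.51% and 1.50% of all tested genes. Requiring 10 counts in each library also drops genes low in replicate 1. Depth limits Ctsg most, with 23 counts in replicate 1.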

Other observations

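The 5 genes outside the set whose ratio lay closest to the granule genes' median log2 ratio of 3.55 were Cystm1 (3.54), Cd177 (3.56), Ankrd22 (3.57), Pimreg (3.61) and Trem3 (3.49). They were sought among the 10313 genes averaging 100 counts or more. Likeness here is a single ratio of 2 libraries. Cd177 is a neutrophil surface gene with 102 and 1208 CPM, and Trem3, a myeloid receptor gene, had 13.7 and 154 CPM. Of the same 10313 genes, 27 had a higher ratio than Ngp and 259 a higher ratio than Elane.

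Markers of other lineages were mixed. The 3 eosinophil markers summed to 37.6 and 81.2 CPM, a ratio of 2.16 (2.01 to 2.33). Siglecf, a surface receptor gene and the most abundant of them, was nearly level with 849 and 1721 counts, a ratio of 1.15 (1.06 to 1.25). Prg2, a major basic protein gene of eosinophil granules, had 29 and 1518 counts, a ratio of 29.7 (20.6 to 44.6), and Epx, the peroxidase gene of the same cells, had 0 and 101 counts, at least 19.1-fold higher against 3 counts in replicate 1. Erythroid genes summed to 5 and 616 counts, with 4 of 6 at 0 in replicate 1. B lineage markers summed to 52.6 and 57.5 CPM, of which Cd79b held most. Of the 3 tested, 2 were over 2-fold higher, Cd79a (7 and 56 counts) and Ms4a1 (4 and 21 counts), beside 9.51% of all tested genes. Cd79b had a ratio of 1.06. The counting interval began at 2.07 for the ratio of Cd79a and at 1.01 for that of Ms4a1. With so few counts in replicate 1, a ratio under 2-fold was therefore not excluded for Ms4a1.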
